A study of Mus musculus with 9 samples.

Results

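Neurexins are receptors of the presynaptic membrane, and neuroligins are the cell adhesion proteins that meet them from the postsynaptic side. Cerebellins (Cbln) are secreted proteins that bridge neurexins to delta-type glutamate receptors, and Tafa proteins are small secreted proteins that bind neurexins. Together they help to set where synapses form and of which kind: neuroligin 1 is known mainly from excitatory synapses and neuroligin 2 from inhibitory ones. The 9 genes described here are Nrxn2, Nrxn3, Nlgn1, Nlgn2, Nlgn3, Cbln1, Cbln2, Tafa1 and Tafa2, taken by symbol from 40773 gene symbols. Of these, Cbln2, Tafa1 and Nlgn1 were picked because their RNA was lower with K+ nanostructures, so that difference is given for them as a description with no test. The other 6 were taken as members of the same families. All 9 passed the filter on low counts, in every group and not through a high group alone.

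RNA was counted in 9 cultures of mouse embryonic cortical neurons, 3 in each of 3 groups. The control group received a non-charged peptide amphiphile (PA), a short peptide with a lipid tail that assembles into fibres. The other groups received nanostructures charged with Na+ ions (Na+ ICN) or with K+ ions (K+ ICN). A volume of 80 µl went onto the settled cells in each group, at 200 µM from a 5 mM stock by the labels, with a 50% change of medium 48 h later. Cells were harvested 72 h after treatment, per the series design, which calls the replicates biological. The labels do not say whether these were separate dissections, and the p-values describe only how these cultures vary. No strain, age of embryo or untreated culture is named in the labels.

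Library totals ranged from 17924988 to 22906950 counts. Levels are given as CPM, counts per 1000000 of the TMM-scaled library total. Fold changes are from edgeR's quasi-likelihood fit to all 9 libraries, with p-values adjusted by the Benjamini-Hochberg method over 15183 genes and a threshold of 0.05. Neuron markers were abundant: the summed level of 9 of them lay between 7960 and 8088 CPM in PA, 7832 and 8041 with Na+ ICN, and 7075 and 7180 with K+ ICN. Of these 9 neuron markers, 1 was lower with Na+ ICN against PA and 4 with K+ ICN against PA, and none was higher. The 8 markers of excitatory cortical neurons summed to 1194 to 1209, 1222 to 1248 and 1148 to 1185 CPM, and the 11 of GABAergic neurons to 1015 to 1043, 898 to 913 and 959 to 978 CPM, in the same order of groups. Astrocyte markers, 10 in number, summed to 581 to 611 CPM in PA, 652 to 690 with Na+ ICN and 662 to 688 with K+ ICN. Microglia markers, 9 in number, stayed between 7.92 and 13.0 CPM in all. Progenitor markers, 7 in number, summed to 323 to 356 CPM in PA, 366 to 400 with Na+ ICN and 394 to 401 with K+ ICN, and 4 of the 7 were higher with K+ ICN against PA and none lower. Mitochondrial genes took 4.15% to 4.33% of counts in PA, 5.24% to 5.44% with Na+ ICN and 4.93% to 5.18% with K+ ICN, with no overlap between groups. The part of these shifts in the results below was not tested. In whole cultures, fewer cells of a type and less RNA per cell cannot be told apart.

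The genes differed widely in level. Per kilobase of the longest annotated transcript, the presynaptic receptor Nrxn2 (75.1 ± 1.81 CPM per kb, SD, n = 3) and the inhibitory-synapse neuroligin Nlgn2 (72.5 ± 1.21) led in PA, with overlapping libraries. The neurexin ligand Tafa2 followed at 33.9 ± 0.430 CPM per kb. Nrxn3, at 13.9 ± 0.556, and Nlgn3, a neuroligin of both synapse kinds, at 10.95 ± 0.471, came next without overlap between neighbours. Nlgn1 (9.16 ± 0.287) and Cbln1 (8.97 ± 0.658), the cerebellin best known from the cerebellum, overlapped. The cortical cerebellin Cbln2 (7.42 ± 0.755) and Tafa1 (2.58 ± 0.377 CPM per kb) were lowest and did not overlap their neighbours. With all annotated exons as the length in place of the longest transcript, neighbours in this order changed places within the pairs Nrxn2 and Nlgn2, Nrxn3 and Nlgn3, and Nlgn1 and Cbln1. Of the 3 genes picked for their lower RNA with K+, Cbln2 and Tafa1 were thus the rarest of the 9.

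**Figure D1:**
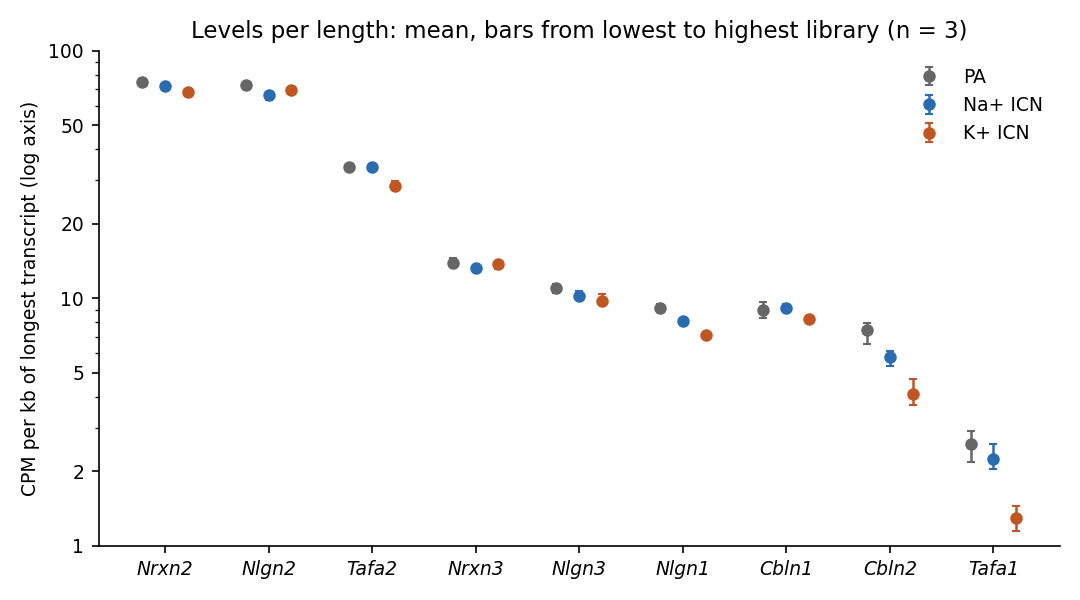
Level of each gene per kilobase of its longest annotated transcript (CPM per kb, log axis) in PA, Na+ ICN and K+ ICN cultures; points are means of 3 libraries and bars run from the lowest to the highest library. Nrxn2 and Nlgn2 lie near 70 to 75 CPM per kb in PA and Tafa1 lowest at 2.58 CPM per kb, and K+ ICN values stand apart from PA most for Cbln2 and Tafa1.

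Among the secreted ligands, Tafa1 and Tafa2 are relatives that differ in abundance and in the size of their difference with K+. Tafa1 lies on chromosome 6, 96113154 to 96657204, plus strand, and Tafa2 on chromosome 10, 123264024 to 123741204, plus strand (GRCm38.p6, RefSeq). The sequences before their RefSeq starts are shown because the genes are relatives that were both lower with K+ ICN. The same is shown for Nlgn1 (chromosome 3, 25421808 to 26332866, minus strand) and Nlgn2 (chromosome 11, 69823123 to 69837784, minus strand), a pair in which the first was the lower with K+. Each is written 5′ to 3′ on the strand of the gene, from RefSeq on GRCm38.p6, and leaves out bases of exons annotated in GENCODE vM21. Capitals mark a match to 1 of 4 motifs searched on both strands.
Tafa1, chr6:96112904-96113153: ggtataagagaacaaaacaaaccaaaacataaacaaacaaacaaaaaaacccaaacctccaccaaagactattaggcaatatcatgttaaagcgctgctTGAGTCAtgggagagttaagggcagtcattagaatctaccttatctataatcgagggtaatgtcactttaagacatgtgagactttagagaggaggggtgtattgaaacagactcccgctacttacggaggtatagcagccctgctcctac
Tafa2, chr10:123263826-123263995: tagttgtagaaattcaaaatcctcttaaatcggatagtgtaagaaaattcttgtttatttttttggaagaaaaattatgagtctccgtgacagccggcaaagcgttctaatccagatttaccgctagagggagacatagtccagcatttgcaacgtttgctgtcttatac
Nlgn1, the downstream of its 2 RefSeq starts, chr3:26153987-26154236: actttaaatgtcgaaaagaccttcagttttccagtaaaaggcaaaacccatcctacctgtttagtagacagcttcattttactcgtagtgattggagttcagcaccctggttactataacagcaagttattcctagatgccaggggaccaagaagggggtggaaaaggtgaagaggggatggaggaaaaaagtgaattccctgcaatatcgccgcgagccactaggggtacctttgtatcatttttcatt
Nlgn2, chr11:69837785-69838034: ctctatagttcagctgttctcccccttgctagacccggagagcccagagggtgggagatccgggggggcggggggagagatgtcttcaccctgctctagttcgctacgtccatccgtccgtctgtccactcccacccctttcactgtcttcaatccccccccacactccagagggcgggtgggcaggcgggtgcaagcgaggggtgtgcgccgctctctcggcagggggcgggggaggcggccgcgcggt

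The motifs were those of CREB (TGACGTCA), AP-1 (TGANTCA), MEF2 (CTA and TAG with 4 bases between) and EGR factors (GCGNGGGCG), families of transcription factors known to act downstream of neuronal activity. The stretch before Tafa1 held 1 AP-1 match, with its first base at -151 from the start, and the other 3 stretches held none of the 4 motifs. An AP-1 match, at -231, also lay before 1 of the 3 RefSeq starts of Nrxn3, a gene whose groups overlapped. In 250 bases before the start, 6.75% of 32851 RefSeq promoter entries held the AP-1 letters, 1.55% the CREB, 3.2% the MEF2 and 4.7% the EGR letters. A match here is a match of letters only, and no match says only that these letters are not in this window. Nlgn2 had the highest GC content of the 4 stretches at 67.6%, against 43.6% for Nlgn1, 40.8% for Tafa1 and 37.1% for Tafa2. Promoter entries matched 5 of the 9 genes (Nrxn3, Nlgn1, Nlgn2, Tafa1 and Tafa2).

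The question of the first comparison was what K+ ICN changed against the non-charged control, which is the contrast that chose Cbln2, Tafa1 and Nlgn1, so all 9 genes are described here with no test. Tafa1 was at 7.05, 8.72 and 9.44 CPM in the PA libraries, 6.62, 6.90 and 8.37 with Na+ ICN, and 3.71, 4.23 and 4.70 with K+ ICN. Every K+ library lay below every PA and Na+ library, while PA and Na+ libraries overlapped. The K+ level was 0.501 of PA (log2 -0.998, SE 0.17). Its counts ran from 82 to 216 per library, and counting alone gives a coefficient of variation of 7.62% in PA and 10.6% with K+ ICN, against 14.6% and 11.7% observed.

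Cbln2 (chromosome 18, 86711061 to 86718283, plus strand) was at 16.7, 19.7 and 20.3 CPM in PA, 15.2, 13.6 and 15.6 with Na+ ICN, and 10.1, 9.41 and 12.01 with K+ ICN. The 3 groups did not overlap, with PA highest and K+ lowest. Its K+ level was 0.554 of PA (log2 -0.85, SE 0.11). Nlgn1, which binds neurexins and recruits postsynaptic scaffolds, was at 105, 108 and 112 CPM in PA, 94.5, 95.5 and 97.6 with Na+ ICN, and 84.0, 85.1 and 83.0 with K+ ICN. Its groups stood in the same order without overlap, and the K+ level was 0.777 of PA (log2 -0.36, SE 0.044). Nlgn1 shares 9.16% of its annotated exon bases with an antisense gene, A830092H15Rik, which had 38 to 70 counts per library.

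The relatives of these 3 genes differed less from PA. Tafa2 was at 149, 149 and 146 CPM in PA, 151, 145 and 148 with Na+ ICN, and 130, 121 and 121 with K+ ICN. All K+ libraries of Tafa2 were below the others, at 0.836 of PA (log2 -0.26, SE 0.039), and PA and Na+ libraries overlapped. Nrxn2 (chromosome 19, 6418756 to 6533217) was at 513, 498 and 490 CPM in PA, 493, 481 and 461 with Na+ ICN, and 457, 444 and 458 with K+ ICN, which put K+ at 0.905 of PA (log2 -0.14, SE 0.029). The K+ libraries of Nrxn2 were below all others, and Na+ overlapped PA. Nlgn3 (chromosome X, 101299179 to 101321350) was at 94.2, 97.2 and 89.2 CPM in PA, 84.8, 85.9 and 91.2 with Na+ ICN, and 81.0, 88.5 and 80.1 with K+ ICN, 0.890 of PA (log2 -0.17, SE 0.049). K+ libraries of Nlgn3 did not overlap PA but overlapped Na+. It shares 41.2% of its annotated exon bases with Gm21986, a transcript on the same strand, so its counts depend on how shared reads were assigned.

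Nlgn2 was at 411, 398 and 402 CPM in PA, 375, 378 and 354 with Na+ ICN, and 394, 385 and 384 with K+ ICN. Here the order differed: Na+ was lowest, K+ lay between without overlap, and the K+ level was 0.960 of PA (log2 -0.06, SE 0.030). Nrxn3 (chromosome 12, 88722701 to 90334935) ranged from 104 to 115 CPM over all 9 libraries, with all groups overlapping and K+ at 0.988 of PA (log2 -0.02, SE 0.044). Cbln1 (chromosome 8, 87468853 to 87472592) was at 24.9, 23.3 and 27.0 CPM in PA, 24.8, 26.5 and 25.1 with Na+ ICN, and 22.3, 23.7 and 23.3 with K+ ICN. K+ overlapped PA for Cbln1, at 0.918 of its level (log2 -0.12, SE 0.082). In all, the K+ and PA libraries did not overlap in 7 of the 9 genes, each time with K+ lower. Over all genes tested, that was so in 15.8% of genes, and 15.8% passed edgeR's test in either direction (2403 genes, 1237 higher and 1166 lower, or 1440 and 902 with upper-quartile scaling). Since that contrast chose members, nothing is read from the count of 7.

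**Figure D2:**
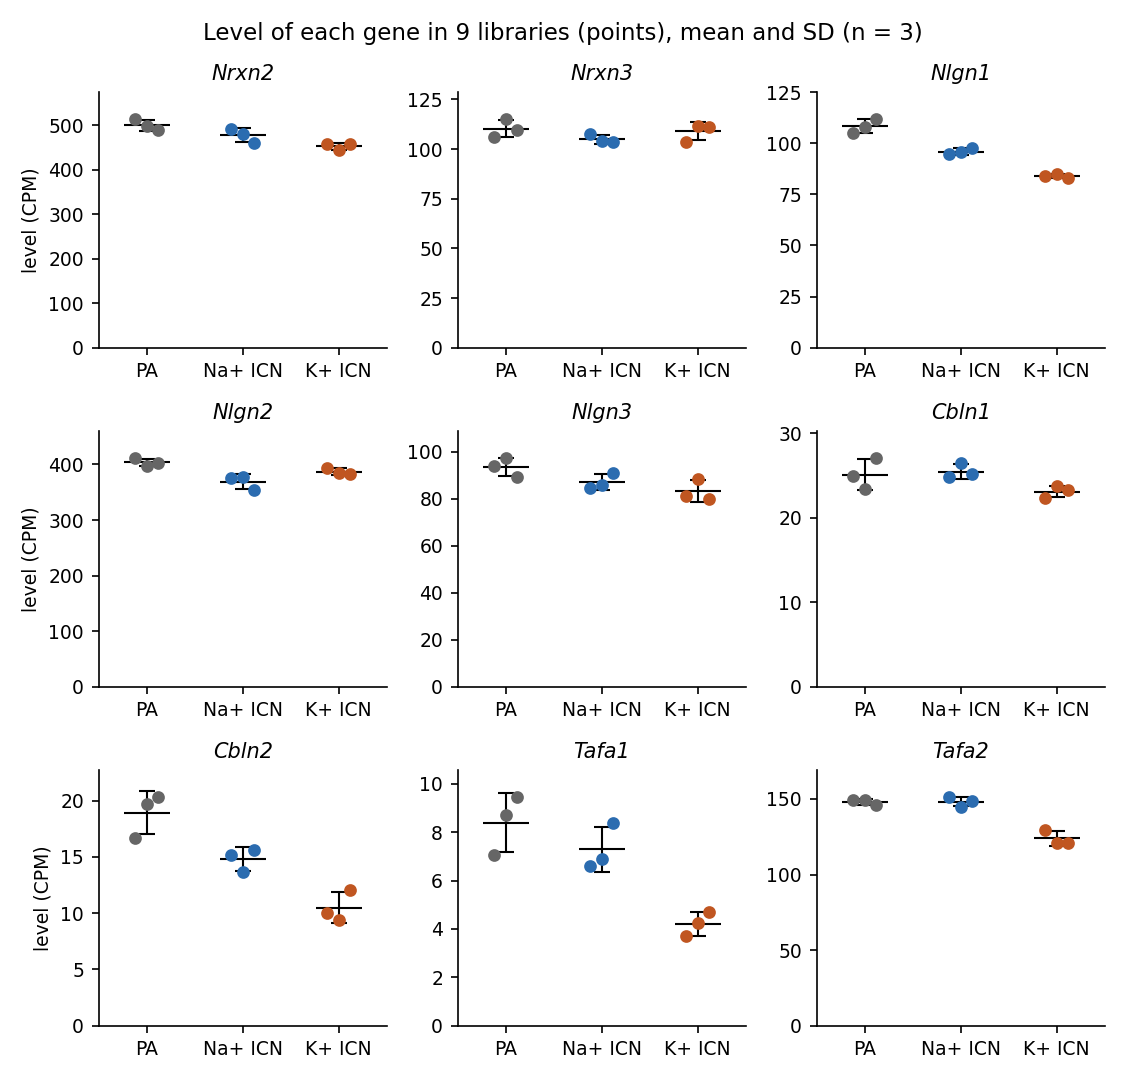
Level of each of the 9 genes (CPM, axes from 0) in every library: 3 PA (grey), 3 Na+ ICN (blue) and 3 K+ ICN (orange) cultures, with the mean as a horizontal line and the SD as bars. K+ libraries lie below all PA libraries for Nrxn2, Nlgn1, Nlgn2, Nlgn3, Cbln2, Tafa1 and Tafa2. For Nrxn3 and Cbln1, K+ and PA libraries overlap.

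The second comparison, Na+ ICN against PA, was not used to choose the genes, although it shares the PA libraries with the contrast that was. Of the 9 genes 3 fell (Nlgn1, Nlgn2 and Cbln2), none rose and 6 did not pass, where 10.9% of all genes passed. In these same 3 genes all Na+ libraries lay below all PA libraries, as in 13.2% of all genes. Nlgn2, which anchors inhibitory synapses, fell to 0.914 of PA (edgeR log2 -0.13, SE 0.031, adjusted p = 0.00287). Of the 11 markers of GABAergic neurons 5 also fell with Na+ ICN and none rose, and their part in the fall of Nlgn2 was not tested. Nlgn1 fell to 0.886 of PA (edgeR log2 -0.17, SE 0.044, adjusted p = 0.00576), but not past the threshold without PA replicate 3 (adjusted p = 0.0645). Cbln2 fell to 0.782 of PA (edgeR log2 -0.35, SE 0.11, adjusted p = 0.0291). That call was lost without PA replicate 2 (adjusted p = 0.110), PA replicate 3 (0.164), Na+ ICN replicate 1 (0.0517) or Na+ ICN replicate 2 (0.145). Since Nlgn1 and Cbln2 were picked for a low K+ level against the same PA libraries, their fall with Na+ is not independent of that choice.

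For the 6 genes that did not pass, the 95% confidence intervals limit the size of a difference with Na+ ICN. Tafa2 had a log2 fold change of 6.6e-04 with an interval from -0.08 to 0.08, and Cbln1 0.02 with an interval from -0.15 to 0.18. Tafa1 was at -0.20 with a wide interval from -0.53 to 0.12, which does not exclude a fall of the size seen in Cbln2. The interval of Nrxn2 (-0.12 to -0.0053) lay below 0, and those of Nrxn3 (-0.16 to 0.02) and Nlgn3 (-0.20 to 9.4e-04) included 0, with adjusted p = 0.167, 0.350 and 0.217 in edgeR. The background count for this comparison was 1648 genes (855 higher and 793 lower, or 1042 and 552 with upper-quartile scaling), 1079 without PA replicate 3 and 1089 without Na+ ICN replicate 2.

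**Figure D3:**
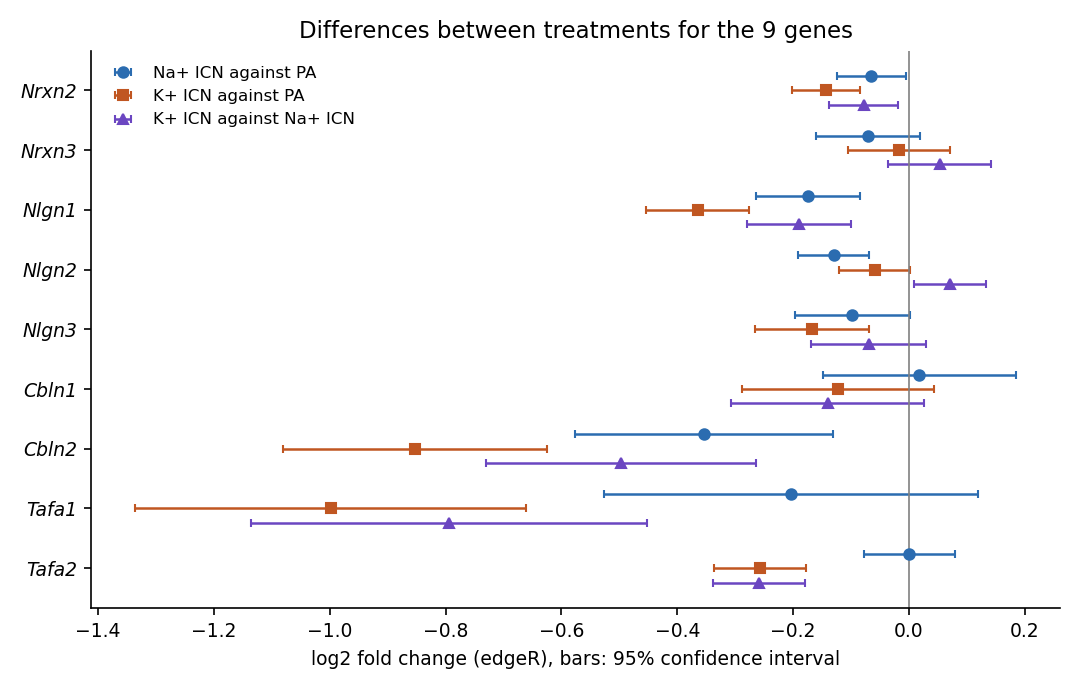
Log2 fold change of the 9 genes in 3 comparisons with 95% confidence intervals from the edgeR fit to 9 libraries: Na+ ICN against PA (circles), K+ ICN against PA (squares) and K+ ICN against Na+ ICN (triangles). K+ ICN against PA lies furthest below 0 for Tafa1 (-0.998) and Cbln2 (-0.85), and only Nlgn2 and Nrxn3 have a K+ against Na+ value above 0.

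The third comparison set K+ ICN against Na+ ICN. It was tested for the 6 genes that were not picked by their K+ level. Tafa2 was lower with K+ than with Na+, at 0.836 of the Na+ level (edgeR log2 -0.26, SE 0.040, adjusted p = 4.82e-06), and was the 1 gene of the 6 to pass, where 6.58% of all genes passed. The K+ and Na+ libraries did not overlap for 4 of the 6 (Nrxn2, Nlgn2, Cbln1 and Tafa2), against 22% of all genes. Tafa2 passed in each of the 17 alternative settings tried, with adjusted p from 6.89e-08 to 2.41e-04. Nrxn2 was at 0.947 of the Na+ level (edgeR log2 -0.08, SE 0.030, adjusted p = 0.112) and passed without Na+ ICN replicate 3 (adjusted p = 0.0347). Nlgn2 was at 1.05 times the Na+ level (edgeR log2 0.07, SE 0.031, adjusted p = 0.188), although its K+ libraries were all above its Na+ libraries. Nrxn3 (log2 0.05, adjusted p = 0.610), Nlgn3 (-0.07, 0.522) and Cbln1 (-0.14, 0.397) did not pass edgeR's test either, with intervals from -0.04 to 0.14, -0.17 to 0.03 and -0.31 to 0.03. For the 3 picked genes the values, with no test, were 0.577 of the Na+ level for Tafa1, 0.708 for Cbln2 and 0.876 for Nlgn1. The test of K+ against Na+ for Tafa2 shares its K+ libraries with the K+ difference from PA given above.

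Within families, the share of reads moved with these levels. Nlgn1 held 17.9% ± 0.664 (SD, n = 3) of the summed counts of Nlgn1, Nlgn2 and Nlgn3 in PA, 17.4% ± 0.535 with Na+ ICN and 15.2% ± 0.115 with K+ ICN, and Nlgn2 held 66.7% ± 0.709, 66.8% ± 1.39 and 69.8% ± 0.835. The K+ libraries lay outside the other groups for both shares. Cbln2 held 42.9% ± 2.85 of the counts of Cbln1 and Cbln2 in PA, 36.7% ± 2.39 with Na+ ICN and 31.2% ± 2.83 with K+ ICN. Tafa1 held 5.37% ± 0.795 of the counts of the Tafa pair in PA, 4.69% ± 0.584 and 3.30% ± 0.482 in the same order. These shares are of counts, not per length, and rest on the picked genes, so they carry no test.

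The 9 genes formed no single pattern across the 9 libraries. Measured as the root mean square difference of log2 CPM after centring each gene on its own mean, Nrxn3 and Nlgn2 were the closest pair (0.063), and Tafa1 and Nlgn2 the most distant (0.453). Tafa1 and Cbln2 were closer to each other (0.154) than either was to Nlgn1 (0.314 and 0.231). The differences were not scaled, so they depend on the size of a gene's change as well as its shape. Tafa1, Cbln2 and Nlgn1 were picked for lower RNA with K+ (log2 -0.998, -0.85 and -0.36 against PA). No shared pattern is therefore read from their distances. By order of groups, Cbln2 went with Nlgn1, while PA and Na+ libraries overlapped for Tafa1. By the same root mean square difference over 10737 genes, the patterns most like Nlgn1 were those of the endocytic GTPase Dnm3 (0.032), Lrrn3 (0.037), the cadherin Cdh10 (0.039), Vstm2a (0.041) and Pnma2 (0.043). Closest to Cbln2 were the hyaluronan-binding Cemip (0.144), the protocadherin Pcdh19 (0.160), Inafm2 (0.162), the transcription factor Mef2c (0.163) and Arhgap28 (0.164). For Tafa1 they were the retinoic acid enzyme Aldh1a3 (0.177), Arhgap28 (0.178), Thsd7b (0.197), Pcdh19 (0.232) and Inafm2 (0.242). Arhgap28, Pcdh19 and Inafm2 were thus near both Cbln2 and Tafa1. Mef2c, which shared its order of groups with Cbln2, had a mean of 768 CPM in PA, 637 with Na+ ICN and 515 with K+ ICN.

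No other tested gene of the same families passed. The cerebellin Cbln4, at 4.58 ± 0.450 CPM in PA and 5.69 ± 0.730 with K+ ICN, did not pass in any comparison (log2 0.31 against PA, SE 0.19, edgeR adjusted p = 0.296), nor did the rare Cbln3. Nlgn4l, a further neuroligin, was at 34.6 ± 5.85 CPM in PA and 38.5 ± 3.13 with K+ ICN (edgeR log2 0.16, SE 0.089, adjusted p = 0.269), and passed as higher without PA replicate 1 (adjusted p = 0.0304). Tafa5, at 65.2 ± 3.64 CPM in PA, was at log2 -0.15 with Na+ ICN (SE 0.058, edgeR adjusted p = 0.0955) and -0.03 with K+ ICN. Tafa3 and Tafa4 had at most 11 counts in any library and were not tested. This list had 5 tested genes, of which 0 passed in any comparison.

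Proteins that meet neurexins and their secreted ligands from the other side were counted next, from 7 lists of partners. Over all lists, 92 of 95 genes were tested. With K+ ICN against PA, 5 were higher, 32 lower and 55 did not pass, with a median log2 fold change of -0.08 against 0.0031 over all genes, where 8.15% of all genes passed as higher and 7.68% as lower. With Na+ ICN against PA, 1 was higher, 23 lower and 68 did not pass (median -0.06 against 0.0036), where 5.63% of all genes passed as higher and 5.22% as lower. With K+ ICN against Na+ ICN, 9 were higher, 19 lower and 64 did not pass (median -0.03), where 3.33% passed as higher and 3.25% as lower. Both comparisons with PA share the PA libraries. The partner lists were chosen with earlier results of these data known.

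Receptors of the cerebellins and of related C1q proteins were among those lower with K+. Grid1 is a delta-type glutamate receptor, the kind that cerebellins bridge to neurexins. Its level was 40.6, 43.9 and 40.0 CPM in PA, 40.1, 39.4 and 38.6 with Na+ ICN, and 31.0, 33.6 and 31.9 with K+ ICN. The K+ libraries were below all others, and Grid1 fell to 0.776 of PA (edgeR log2 -0.37, SE 0.070, adjusted p = 1.17e-04) and was 0.818 of the Na+ level (adjusted p = 0.00495). The adhesion receptor Adgrb3, which binds C1q-like proteins, fell to 0.765 of PA with K+ ICN (edgeR log2 -0.39, SE 0.052, adjusted p = 1.69e-07). It also fell with Na+ ICN, to 0.884 (adjusted p = 0.0188), a call lost without PA replicate 1 (0.0780), PA replicate 2 (0.0968) or Na+ ICN replicate 3 (0.0690).

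The kainate receptor subunit Grik2 fell with K+ ICN to 0.850 of PA (edgeR log2 -0.23, SE 0.049, adjusted p = 4.24e-04), and Grik4 was at log2 0.10 (adjusted p = 0.758). The netrin receptor Dcc, which also binds cerebellin 4, and its relative Neo1 did not pass against PA with K+ ICN (log2 0.06 and 0.02, edgeR adjusted p = 0.372 and 0.654). In all, 3 of 7 genes of this list fell with K+ ICN and 1 with Na+ ICN, and none rose against PA. The shares of all genes that passed against PA were 7.68% lower and 8.15% higher with K+ ICN, and 5.22% and 5.63% with Na+ ICN. For K+ against Na+ ICN, 3.25% of all genes passed as lower and 3.33% as higher. Against Na+, 3 were lower with K+ and 1, Dcc, was higher (edgeR log2 0.15, SE 0.043, adjusted p = 0.0303), a call lost in 6 of 17 alternatives. Of the 3 lower calls, that of Grik2 was lost in 5 alternatives, that of Adgrb3 in 1 and that of Grid1 in none. The median log2 fold change was -0.15 with K+ ICN and -0.08 with Na+ ICN.

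Among 16 other ligands of neurexins, 5 fell with K+ ICN, 4 fell with Na+ ICN and none rose. Over all genes, 7.68% passed as lower with K+ ICN and 5.22% with Na+ ICN. Of the falls with K+ ICN, that of Nxph2 was lost in 8 of 17 alternatives and that of Dag1 in 6. With Na+ ICN, the fall of Clstn3 was lost in 5 and that of Adgrl3 in 4. The latrophilins Adgrl3 and Adgrl1, adhesion G protein-coupled receptors, fell with K+ ICN to 0.804 and 0.915 of PA, that is, log2 -0.31 (SE 0.038) and -0.13 (SE 0.027), with edgeR adjusted p = 1.99e-08 and 3.91e-04. The neurexophilin Nxph1, a secreted protein bound tightly to neurexin, fell with both, to 0.765 with K+ ICN and 0.827 with Na+ ICN (edgeR adjusted p = 6.17e-07 and 4.39e-04). Dystroglycan (Dag1) fell to 0.910 with Na+ ICN (edgeR adjusted p = 0.00591). The leucine-rich repeat protein Lrrtm3 was at 13.3, 11.8 and 11.7 CPM in PA, 14.8, 14.7 and 13.8 with Na+ ICN, and 10.6, 10.8 and 10.5 with K+ ICN, with no overlap between groups. Lrrtm3 was lower with K+ than with Na+ (edgeR log2 -0.44, SE 0.12, adjusted p = 0.00961), and neither difference from PA passed (adjusted p = 0.198 with Na+ and 0.251 with K+).

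Of 5 genes listed as surface partners of neuroligins, 2 fell and 1, Hspg2, rose with K+ ICN against PA, and 2 fell and none rose with Na+ ICN. The shares of all genes that passed were 7.68% lower and 8.15% higher with K+ ICN, and 5.22% and 5.63% with Na+ ICN. Mdga1, which binds neuroligins and blocks their contact with neurexins, was at 155, 141 and 147 CPM in PA, 136, 146 and 131 with Na+ ICN, and 115, 109 and 109 with K+ ICN. The K+ libraries were below all others, and Mdga1 fell to 0.752 of PA (edgeR log2 -0.41, SE 0.043, adjusted p = 3.58e-10) and was at 0.806 of the Na+ level (adjusted p = 7.66e-07). Lhfpl4, which links Nlgn2 to GABA receptors, fell with both, to 0.864 of PA with K+ ICN (edgeR adjusted p = 1.70e-04) and 0.874 with Na+ ICN (9.70e-04). Hspg2, the heparan sulphate proteoglycan perlecan, rose 1.27-fold with K+ ICN (edgeR log2 0.34, SE 0.083, adjusted p = 0.00227). With Na+ ICN, Hspg2 was at log2 0.02. Vascular markers, 9 in number, summed to 57.7 to 67.3 CPM in PA, 82.3 to 88.4 with Na+ ICN and 93.0 to 110 with K+ ICN. Of these markers, Acta2 alone had means of 32.8, 54.5 and 68.1 CPM in the same order. Among the 6 tested, 2 were higher with K+ ICN against PA and none lower. The part of these markers in the Hspg2 rise was not tested.

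Intracellular adaptors of both sides fell in 5 of 18 cases and rose in 1 with K+ ICN, and fell in 3 with Na+ ICN. Over all genes, 7.68% passed as lower and 8.15% as higher with K+ ICN, and 5.22% as lower with Na+ ICN. The fall of the adaptor Caskin1 with K+ ICN was lost in 7 of 17 alternatives. The postsynaptic scaffold Shank1 fell with both, to 0.768 with K+ ICN and 0.848 with Na+ ICN (edgeR adjusted p = 1.70e-12 and 7.61e-07). Dlgap1, which ties scaffolds together, fell to 0.826 with K+ ICN, and Cask, which binds the neurexin tail, to 0.916 (edgeR adjusted p = 7.74e-08 and 0.00523). Gephyrin (Gphn), the scaffold of inhibitory synapses that Nlgn2 binds, rose 1.10-fold with K+ ICN (edgeR log2 0.14, SE 0.047, adjusted p = 0.0343) and was at log2 9.3e-04 with Na+ ICN. Dlg4, the excitatory scaffold, did not pass with K+ or Na+ ICN (edgeR adjusted p = 0.153 and 0.759). Gphn and Dlg4 were chosen for naming after their values were seen, and their calls were not followed through the alternative settings.

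Of 9 tested splicing regulators and proteases, 4 fell with K+ ICN and 1 with Na+ ICN. The fall of the protease Adam10 with K+ ICN was lost in 5 of 17 alternatives. Bace1, a protease that sheds membrane proteins, fell to 0.804 with K+ ICN and 0.847 with Na+ ICN (edgeR adjusted p = 1.75e-07 and 7.39e-05), and the neuronal splicing factor Ptbp2 fell to 0.897 with K+ ICN (0.00181). Among 32 other synaptic adhesion genes, 13 fell and 3 rose with K+ ICN, and 12 fell and 1 rose with Na+ ICN. Over all genes, 7.68% passed as lower and 8.15% as higher with K+ ICN, and 5.22% and 5.63% with Na+ ICN. Netrin-G2 (Ntng2), a presynaptic adhesion protein, rose 1.43-fold with K+ ICN (edgeR log2 0.51, SE 0.044, adjusted p = 1.11e-12). Lrrc4c fell to 0.726 with K+ ICN and 0.751 with Na+ ICN (edgeR adjusted p = 1.34e-08 and 4.67e-07). The teneurin Tenm2, a partner of latrophilins, fell to 0.790 with K+ ICN, and Tenm1 fell to 0.749 with Na+ ICN (edgeR adjusted p = 1.39e-11 and 1.15e-12). Tenm1 also fell with K+ ICN (log2 -0.28), and Tenm2 was at log2 -0.09 with Na+ ICN (edgeR adjusted p = 0.0619). Tenm3 fell with both, to 0.845 with K+ ICN and 0.916 with Na+ ICN (edgeR adjusted p = 1.78e-08 and 0.00277). Slitrk4 and Cadm2 were higher with K+ than with Na+, 1.23-fold and 1.22-fold (edgeR adjusted p = 1.21e-04 and 2.00e-04). Against PA, both fell with Na+ ICN, to 0.832 and 0.845 (edgeR adjusted p = 5.27e-04 and 0.00132). With K+ ICN they did not pass against PA (log2 0.03 and 0.05).

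**Figure D4:**
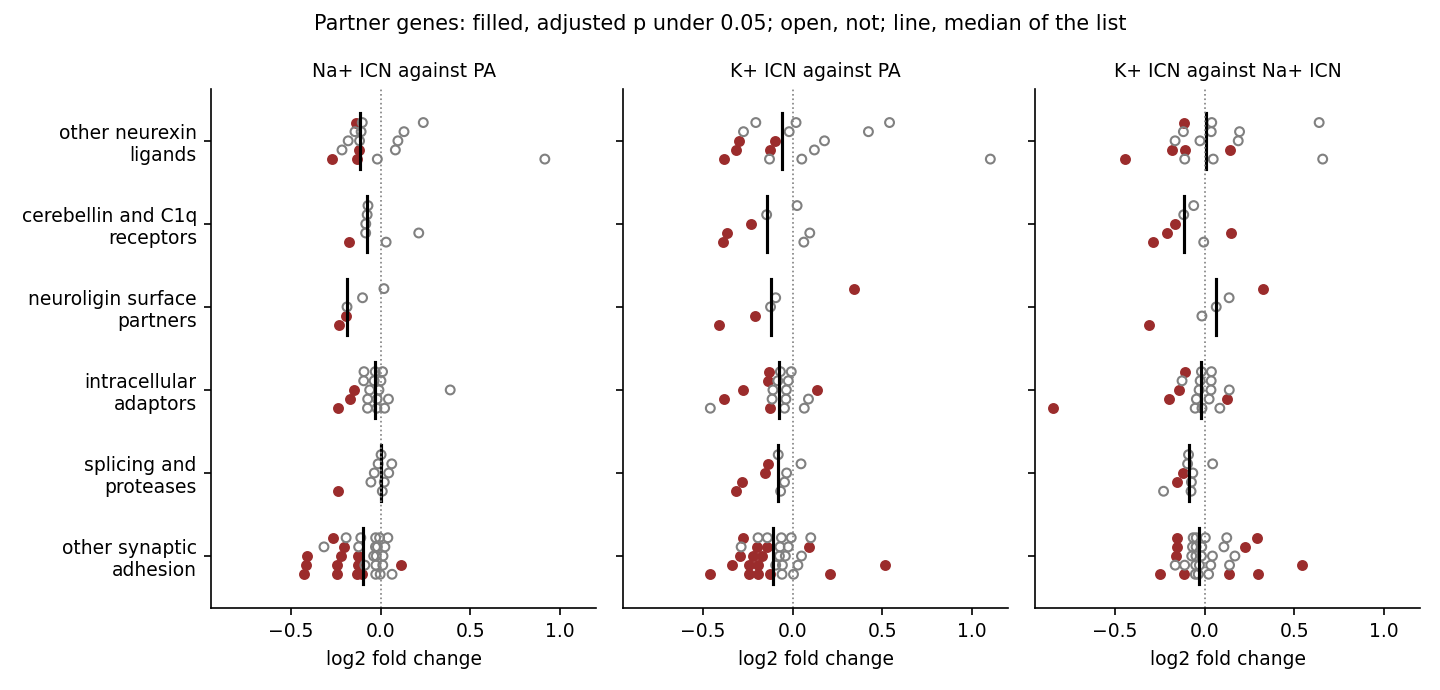
Log2 fold change of the tested genes of 6 partner lists in 3 comparisons; filled points passed an edgeR adjusted p of 0.05, open points did not, and the black line is the median of the list. Filled points lie mostly below 0 against PA (5 higher and 32 lower with K+ ICN, 1 higher and 23 lower with Na+ ICN), and Ntng2 is the filled point furthest to the right with K+ ICN.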

How the data were processed

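The deposited table holds whole-number counts made by the authors, 1 row for each of 40773 gene symbols and 1 column for each of 9 libraries of polyadenylated RNA from a stranded kit, per the labels' protocols. The submitters' processing notes name STAR, RSEM and Trim Galore and the build GRCm38, without versions. No source used here gives the annotation, the strand setting or whether the counts are rounded RSEM estimates. Genes that overlap others are therefore uncertain.

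Counts were tested with edgeR 4.0.16 (R 4.3.3): filterByExpr with a count minimum of 10 (15183 genes, 99.9% of counts), TMM scaling and a robust quasi-likelihood fit to 9 libraries. Replicate pairs differed by more than counting noise (chi-square per degree of freedom 3.23 to 4.13), so each library was kept. The test was tried on simulated data. SE is the log2 fold change over the root of F. Alternatives used DESeq2 1.42.0, limma 3.58.1, other scalings, filters and libraries. Lengths and overlaps are from GENCODE vM21, positions and promoters from RefSeq GRCm38.p6.

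The 9 genes, the 7 partner lists and the tests were chosen with earlier results of these data known. Named partners are up to 4 genes per list and comparison with the smallest p among those that passed, and all tested genes of the family and receptor lists. Genes of similar pattern are the 5 closest with a mean of at least 5 CPM and no predicted symbol (log2 CPM, prior count 2). Some genes that these rules take are not reported here.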

Additional observations from a re-analysis of the deposited data

How the results depend on the processing

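Under 17 alternatives (8 other settings and 9 fits that each left out a library), 453 of 459 values for the 9 genes stayed on their side of the threshold or, where untested, within 1 SD of the value given. The other 6 came from leaving out 1 library and are given with Nlgn1, Cbln2 and Nrxn2. None changed sign past a threshold. With a library left out, genes called ranged from 1079 to 1611 for Na+ ICN against PA, 1778 to 2480 for K+ ICN against PA and 714 to 976 for K+ against Na+. Of the 9 genes, 1 to 3 were called for Na+ ICN against PA, and of the 6, 1 to 2 for K+ against Na+. Partner genes called ranged from 18 to 25, 31 to 40 and 19 to 28 in the 3 comparisons. Of 65 calls for named partners, 42 held in all alternatives, 23 did not in at least 1, and none reversed. Gphn and Dlg4 are not among these partners. Calls were lost both with a library left out and, for some genes, with all 9 libraries under another scaling, filter or test. The cause was not tested.

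The labels do not say that a replicate number marks a shared batch. Deviations from the group mean correlated between -0.023 and 0.048 over 9 pairs of the same number and between -0.037 and 0.039 over 18 pairs of different numbers. In 12 of 18 cases, but not in all, a library correlated best with its own number in another group, a weak hint from the data and not the design. Each case was a choice among 3 libraries, and each pair entered from both sides, so the cases are not independent. With the replicate number as a block, 1825, 2612 and 1165 genes were called in place of 1648, 2403 and 999, 27, 42 and 30 partners in place of 24, 37 and 28, and again 3 of the 9 and 1 of the 6 genes. Counts of 82 to 216 limit Tafa1, whose interval with Na+ ICN was the widest of the 9.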
